A study of Mus musculus with 12 samples.

Results

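Hemidesmosomes are the adhesion plaques that fasten basal keratinocytes to the basement membrane, and their parts were followed here in mouse tongues exposed to the carcinogen 4NQO. The listed genes were Lama3 and Lamb3, which encode the α3 and β3 chains of laminin-332, Itga6, Itgb4, Itga3 and Itgb1, which encode its integrin receptors, and Plec and Dst, which encode plakin linkers. They were chosen by name from the biology of basal adhesion and of the invasion front. All 8 were found among the 32498 rows that carried a gene symbol, and all 8 were among the 16852 genes that passed the filter on low values. The study compared tongues of C57BL/6 mice given gallic acid (GA), a plant phenolic acid, with tongues of mice given vehicle. All mice of both groups drank water with 4NQO at 100 µg/mL over 16 weeks. From week 4 on, GA (100 mg/kg) or its vehicle of methyl cellulose and Tween-20 was given by gavage, 5 doses a week. Each group held 6 bulk RNA-seq libraries of tissue labelled tumor and tumor-associated. The sex of the mice is not given in the sources used here, and mice were bought at 5 weeks of age. Nothing in the labels says that each library came from a separate mouse, so p-values measure the spread between these libraries.

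In the hemidesmosome, integrin α6β4 spans the basal membrane and binds laminin-332 outside the cell. Inside, plectin and the epithelial form of dystonin (BPAG1e) tie the integrin to the keratin network, of which keratin 14 is the main basal type I member. Laminin-332 is a trimer in which the α3 and β3 chains take part, and it is the main laminin of the epidermal basement membrane. Integrin α3β1 binds the same laminin but joins the actin cytoskeleton through focal contacts, while β1 also pairs with many other α chains in stroma, vessels and muscle.

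Levels are given as FPKM (fragments per kilobase of gene, relative to library size), after the libraries were brought to a common scale. Recovered read totals ran from 18040152 to 21770340 in the vehicle group and from 21237167 to 25192491 in the GA group. The 8 genes rested on 883 reads (Lama3 in its lowest library) to 29188 reads (Itgb4 in its highest library), so counting error was small beside the spread between libraries. The tissue was mixed. Krt14 and Krt5 were high in every library, but the summed level of 10 skeletal muscle markers ran from 1495 to 12729 FPKM in the vehicle group and from 2181 to 9570 FPKM in the GA group. Y-linked reads were present in vehicle 1 to 4 and in GA 1 and absent from the other libraries, so sex was not balanced between the groups. The tongue gland lipase Lipf exceeded 1000 FPKM in vehicle 3, vehicle 5 and GA 2. In such tissue, fewer cells of a type and less RNA per cell cannot be told apart.

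In the GENCODE M21 annotation of GRCm38 Lamb3 spans chr1:193207699-193343878, Dst chr1:33908225-34308661 and Itga6 chr2:71745616-71858416, all on the plus strand. Itgb1 spans chr8:128685654-128733200 and Itgb4 chr11:115974709-116008412 on the plus strand, while Itga3 spans chr11:95044474-95076801 and Plec chr15:76170974-76232574 on the minus strand. The position of Lama3 is not given here. Itgb4 shares 7.66% of its exon bases with an opposite-strand gene (B230344G16Rik) and Dst shares 3.63% in the same way, the others share at most 1.83% with any gene, and since strand use in counting is not given in the sources used here, such reads could not be told apart.

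RefSeq start-site windows of the same build (GRCm38.p6) covered 4 of the 8 genes. The stretches that precede the Dst starts with a RefSeq window, which are not all of its annotated starts, are shown because one gene value sums very different Dst transcripts, and those of Lamb3 and Itga3 because these genes carried the ratios described further on. Each is written 5′ to 3′ on the strand of its gene, and capitals mark CpG dinucleotides.
Dst, upstream window, chr1:34011345-34011594: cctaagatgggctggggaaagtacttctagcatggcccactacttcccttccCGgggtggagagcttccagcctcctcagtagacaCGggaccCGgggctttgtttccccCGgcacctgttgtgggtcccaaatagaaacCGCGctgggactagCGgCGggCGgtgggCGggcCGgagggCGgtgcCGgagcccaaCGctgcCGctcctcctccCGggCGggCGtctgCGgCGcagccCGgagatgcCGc
Dst, downstream window, chr1:34160010-34160259: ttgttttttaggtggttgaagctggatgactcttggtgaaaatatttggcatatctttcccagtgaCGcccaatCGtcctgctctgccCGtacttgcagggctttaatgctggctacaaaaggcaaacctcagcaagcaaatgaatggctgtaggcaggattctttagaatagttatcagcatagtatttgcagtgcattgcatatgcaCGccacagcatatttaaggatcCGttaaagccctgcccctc
Lamb3, chr1:193301744-193301992: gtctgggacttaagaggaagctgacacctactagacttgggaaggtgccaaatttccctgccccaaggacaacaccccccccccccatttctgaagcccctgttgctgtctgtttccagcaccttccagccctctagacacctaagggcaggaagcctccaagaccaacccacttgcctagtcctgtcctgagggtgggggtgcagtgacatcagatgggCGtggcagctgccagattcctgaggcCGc
Itga3, chr11:95076802-95076964: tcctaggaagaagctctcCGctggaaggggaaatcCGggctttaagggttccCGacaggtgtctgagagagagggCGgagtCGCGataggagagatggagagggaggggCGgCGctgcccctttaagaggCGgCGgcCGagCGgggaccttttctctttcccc

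The upstream Dst stretch held 22 CpGs at 68.8% GC, a CpG density reached by 14.8% of all 32851 windows, whereas the downstream stretch held 5 CpGs at 45.2% GC, a density reached by 55.6%. Lamb3 held 2 CpGs at 58.6% GC and Itga3 held 12 at 62.6% GC. The upstream stretch precedes Dst transcripts of about full plakin length, such as Dst-201 with 23251 exon bases, and the downstream one precedes Dst-213 with 8788, Dst-217 with 8961 and Dst-215 with 16340 exon bases. The annotation lists 14 coding transcripts, some of which start elsewhere, such as Dst-211 with 23201 exon bases, which starts upstream of both stretches. A gene value cannot separate them, and the Dst model counts 41155 exon bases in all. The letters TGANTCA, the motif bound by AP-1 factors, were searched on both strands in the full 300-base windows. They were in 7.81% of all windows and in 1 of 7 windows of the listed genes, that of a second Itga3 start, and in none of the 4 stretches shown.

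Which of these genes differed between GA and vehicle was tested first, and no listed gene passed. In limma's test over all genes, 0 of 16852 genes reached an adjusted p below 0.1 and a log2 change of 0.58 or more in either direction (0% called), and all 8 listed genes had an adjusted p of 0.999. At an unadjusted p below 0.05, 367 genes (2.18%) passed, and none of the 8 was among them. With limma-voom on recovered reads, 0 genes were called and 335 had an unadjusted p below 0.05. Of the 8 genes, 6 had lower and 2 higher fitted values with GA, with a median log2 difference of −0.10, beside 8838 lower and 8014 higher of all tested genes, with a median of −0.01. The ranges of the groups overlapped for every listed gene.

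The laminin chains come first as the ligands. Lama3 was 6.05, 5.51, 5.38, 45.6, 19.6 and 12.7 FPKM in vehicle 1 to 6. In GA 1 to 6 it was 3.95, 8.45, 8.45, 3.52, 4.81 and 22.9 FPKM. Vehicle 4 stood highest of all, and the 3 lowest libraries were all of the GA group. The group means were 15.8 ± 15.6 and 8.68 ± 7.29 FPKM (SD, n = 6 each), and the log2 fold change was −0.70 with an SE of 0.58 (exact permutation test, two-sided p = 0.323). It was −0.29 without vehicle 4 and −1.04 without GA 6.

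Lamb3, whose chain joins α3 in the same trimer, was 17.8, 14.8, 12.7, 70.4, 33.3 and 26.8 FPKM in the vehicle libraries. In the GA libraries it was 13.7, 21.9, 26.4, 13.2, 14 and 72.1 FPKM. Here vehicle 4 and GA 6 were almost level at the top. The means were 29.3 ± 21.6 and 26.9 ± 22.8 FPKM (SD, n = 6 each) and the log2 fold change was −0.17 with an SE of 0.48 (exact permutation p = 0.740). It was −0.51 without GA 6 and turned to 0.14 without vehicle 4.

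Itga6, the α chain of the hemidesmosomal integrin, was 21.1, 21.9, 28.1, 78.4, 54.8 and 49.0 FPKM in the vehicle libraries. GA 1 to 6 in turn had 17.0, 27.7, 27.2, 18.5, 16.5 and 119.7 FPKM. GA 6 was the highest of all 12, yet the other 5 GA libraries all lay below the vehicle median of 38.5 FPKM. The log2 fold change was −0.42 with an SE of 0.49 (exact permutation p = 0.448). Without GA 6 it was −0.84 with an SE of 0.34 (limma, unadjusted p = 0.0315, adjusted p = 0.798), and without vehicle 4 it was −0.21.

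Itgb4, the β chain that pairs only with α6, was 43.2, 36.8, 36.5, 79.3, 69.0 and 55.3 FPKM in the vehicle libraries. In the GA libraries it was 30.1, 44, 47.6, 36.5, 29.1 and 158.9 FPKM. GA 6 was again the highest, and the other 5 GA libraries lay below the vehicle median of 49.2 FPKM. The means were 53.3 ± 17.8 and 57.7 ± 50.1 FPKM (SD, n = 6 each), and the log2 fold change was −0.12 with an SE of 0.38 (exact permutation p = 0.820). It was −0.47 without GA 6 and 0.00690 without vehicle 4.

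Itga3, the α chain of the other laminin-332 receptor, was 14, 13.4, 13.5, 35.7, 25.3 and 19.0 FPKM in the vehicle libraries. GA 1 to 6 in turn had 10.5, 19.6, 18.3, 14.2, 11.3 and 61.7 FPKM. The medians of 16.5 and 16.3 FPKM were nearly equal, and the log2 fold change was −0.04 with an SE of 0.40 (exact permutation p = 0.974). It was −0.39 without GA 6 and 0.15 without vehicle 4.

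Itgb1, the β chain shared by many integrins, was 33.6, 46.6, 64.4, 119.1, 95.7 and 55.3 FPKM in the vehicle libraries. In the GA libraries it was 53.2, 75.2, 51.8, 46.8, 49.4 and 98.1 FPKM. Its lowest library, vehicle 1, was not the lowest for any of the laminin chains or α chains. The log2 fold change was −0.07 with an SE of 0.30 (exact permutation p = 0.831) and was 0.11 without vehicle 4 and −0.21 without GA 6.

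The plakins were the steadiest of the 8 genes. Plec, whose product links integrin β4 to keratin and also serves muscle and other cells, ran from 21.4 to 37.8 FPKM in the vehicle group and from 24.2 to 37.7 FPKM in the GA group. Vehicle 3 and GA 2, its highest libraries, were also those with the highest summed muscle markers, at 12729 and 9570 FPKM. The same libraries were the highest in the gland lipase Lipf, at 22249 and 26032 FPKM. The relation of Plec to the muscle markers is given further on, and the parts of muscle and gland in these high values were not tested apart. The log2 fold change was 0.04 with an SE of 0.15 (exact permutation p = 0.755).

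Dst was 8.67, 12.2, 11.7, 10.7, 8.78 and 11.2 FPKM in the vehicle libraries. GA 1 to 6 in turn had 14.2, 9.19, 10.3, 10.7, 15 and 16.2 FPKM. GA 1, GA 5 and GA 6 lay above every vehicle library, and the other 3 GA libraries lay within the vehicle range. The means were 10.5 ± 1.5 and 12.6 ± 2.90 FPKM (SD, n = 6 each), and the log2 fold change of 0.23 had an SE of 0.16 (exact permutation p = 0.173).

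**Figure D1:**
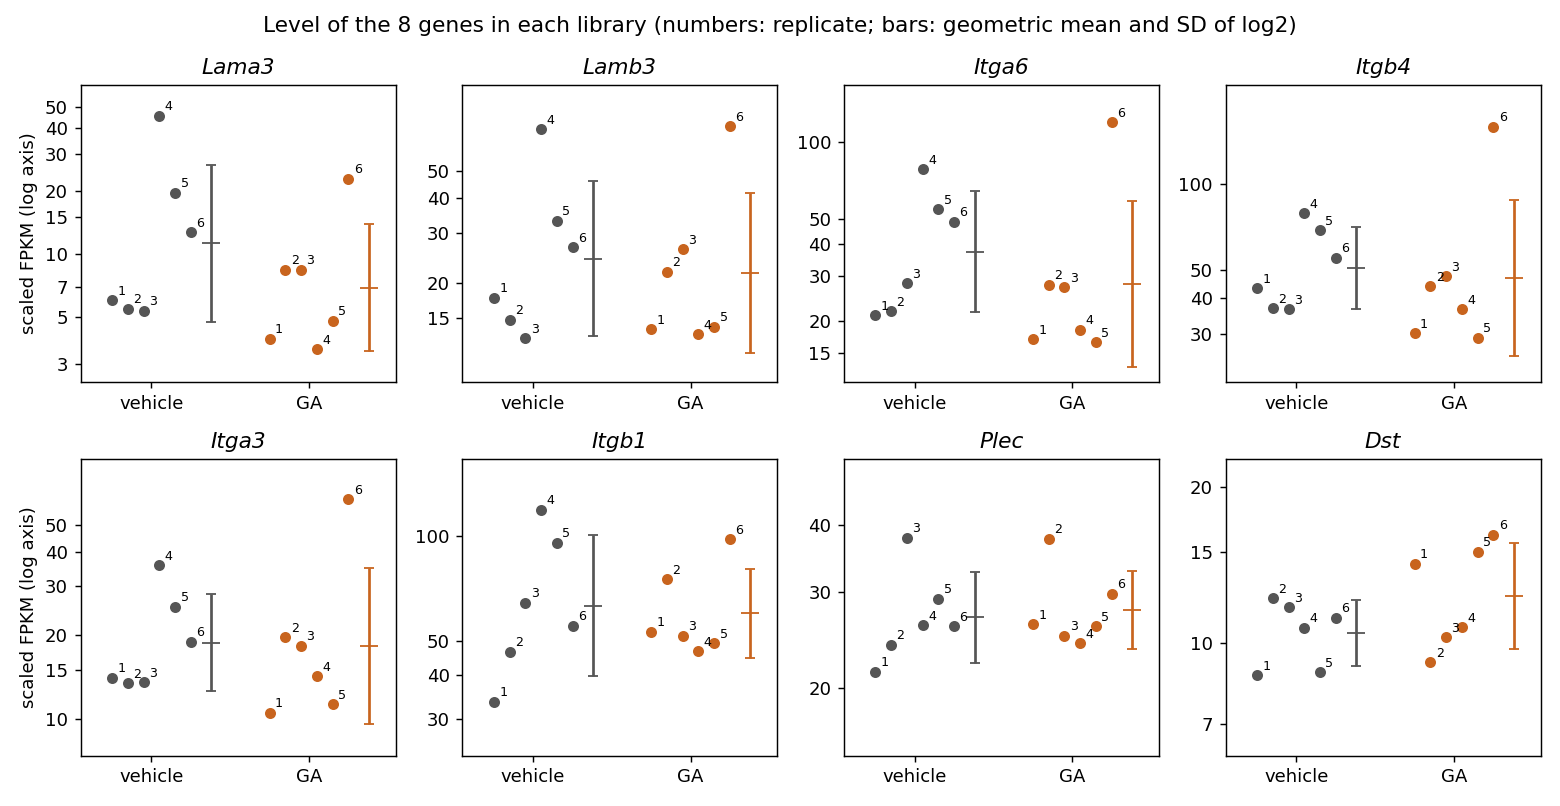
Scaled FPKM (log axis) of the 8 genes in each vehicle and GA library. Points are libraries numbered by replicate, and bars give the geometric mean and the SD of the log2 values. Vehicle 4, vehicle 5 and GA 6 are the highest 3 libraries for the laminin chains and all 4 integrin chains, while Plec and Dst span less than 2-fold.

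**Figure D2:**
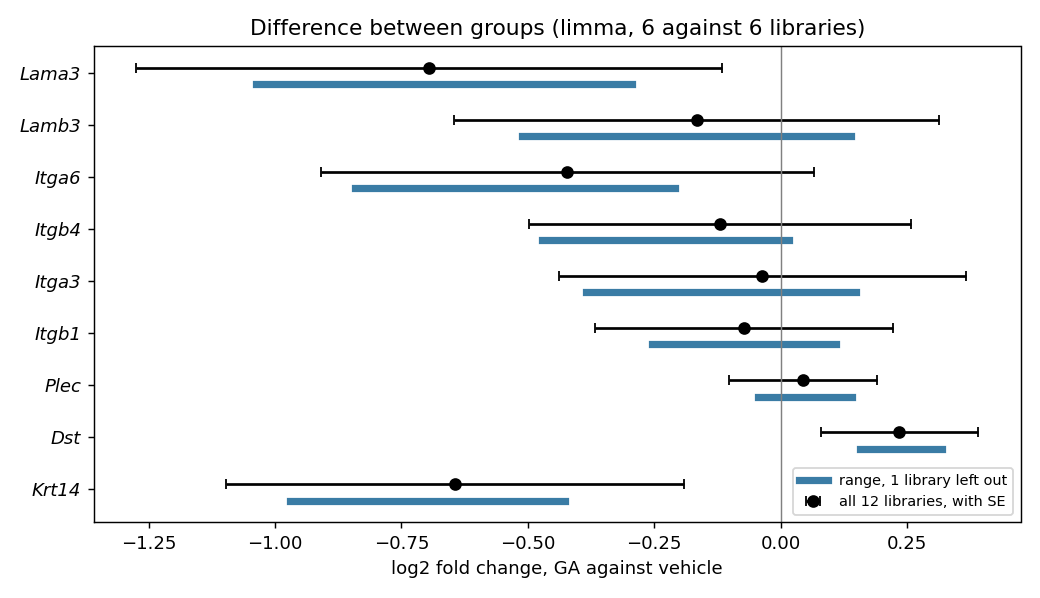
Log2 fold change of GA against vehicle (x axis) for the 8 genes and Krt14. Black points with bars give the limma estimate and its SE over 12 libraries, and blue bars give the range when each library was left out in turn. The blue bars of Lamb3, Itgb4, Itga3, Itgb1 and Plec cross 0.

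The laminin and integrin genes varied together across libraries. Vehicle 4, vehicle 5 and GA 6 held the top 3 ranks for Lama3, Lamb3, Itga6, Itgb4, Itga3 and Itgb1, and for none of these genes was another library in the top 3. Over all 12 libraries the SD of the log2 level was 1.13 for Lama3, 0.92 for Itga6, 0.89 for Lamb3, 0.74 for Itga3, 0.69 for Itgb4 and 0.54 for Itgb1. It was 0.25 for Plec and 0.29 for Dst. The tightest pair was Itgb4 and Itga3, which belong to different receptors, with an SD of 0.14 for their log2 ratio. Lama3 and Dst were the widest pair, at 1.20. Compared per kilobase, mean levels over the 12 libraries ran from 11.6 FPKM for Dst and 12.2 for Lama3 to 55.5 for Itgb4 and 65.8 for Itgb1. Itga3 (21.4), Plec (27.8), Lamb3 (28.1) and Itga6 (39.98) lay between. Itga6 exceeded Lamb3, and Itgb4 exceeded Itga6, in 12 of 12 libraries. The other neighbours in this order changed places from library to library, such as Itgb4 and Itgb1, whose ratio ran from 0.565 to 1.62.

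Krt14, the basal keratin, was then used as the reference for how much basal epithelium or basal keratin message a library held. Krt14 was 3487, 2508, 3293, 4742, 6953 and 4502 FPKM in the vehicle libraries. In the GA libraries it was 1213, 3320, 2737, 2513, 1332 and 7982 FPKM. GA 1 and GA 5 were the lowest and GA 6 the highest. The log2 fold change was −0.64 with an SE of 0.45 (exact permutation p = 0.188), and −0.97 without GA 6 (limma, unadjusted p = 0.0244, adjusted p = 0.798). With a term for the presence of Y-linked reads, carried by 4 vehicle libraries and 1 GA library, Krt14 was at −1.11 (SE 0.48; limma, unadjusted p = 0.0391, adjusted p = 0.989). The same term moved Lama3 to −1.10, Itga6 to −0.80, Lamb3 to −0.45, Itgb4 to −0.40, Itga3 to −0.32 and Itgb1 to −0.21, each with an adjusted p of 0.989, while Plec was at 0.01 and Dst at 0.32.

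The integrin α6β4 and α3 chains followed Krt14 across the 12 libraries. Pearson's r of the log2 levels was 0.87 for Itga6 (permutation p adjusted over all 16851 other genes = 0.0193), 0.87 for Itgb4 (0.0181) and 0.84 for Itga3 (0.0327). Spearman's rho was 0.90, 0.90 and 0.90, with adjusted permutation p-values of 0.0249, 0.0249 and 0.0230. A positive r passed an adjusted p of 0.05 for 422 genes (2.5%). When the libraries farthest from the median of Krt14, GA 1 and GA 5, were left out, r was 0.90, 0.89 and 0.83. Within the vehicle group r was 0.79, 0.85 and 0.76, and within the GA group 0.92, 0.94 and 0.96, in the same order of genes.

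The laminin chains had a similar r and did not pass on Pearson's r. It was 0.78 for Lama3 (adjusted permutation p = 0.0600) and 0.76 for Lamb3 (0.0741), with Spearman's rho of 0.87 (adjusted permutation p = 0.0348) and 0.80 (0.0615). Lama3 passed on rho alone. Without GA 1 and GA 5, r was 0.79 for both. Within groups it was 0.74 and 0.88 for Lama3, and 0.69 and 0.90 for Lamb3, vehicle first. Itgb1 had an r of 0.62 (adjusted permutation p = 0.165) and a rho of 0.66 (adjusted permutation p = 0.136). Its r was 0.71 without GA 1 and GA 5, and within groups it was 0.66 and 0.83, vehicle first. With vehicle 4 and GA 6 both left out, a choice made after the values were seen, it was 0.46.

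Without regard to the muscle share, the plakins did not follow Krt14. For Plec r was 0.24 (adjusted permutation p = 0.694) and rho 0.29 (adjusted permutation p = 0.593). For Dst r was −0.30 (adjusted permutation p = 0.595) and rho −0.34 (adjusted permutation p = 0.527). The Dst value rested on single libraries: it was −0.79 without GA 6, which was highest for both genes, and 0.26 without GA 1 and GA 5, which were high in Dst and lowest in Krt14.

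**Figure D3:**
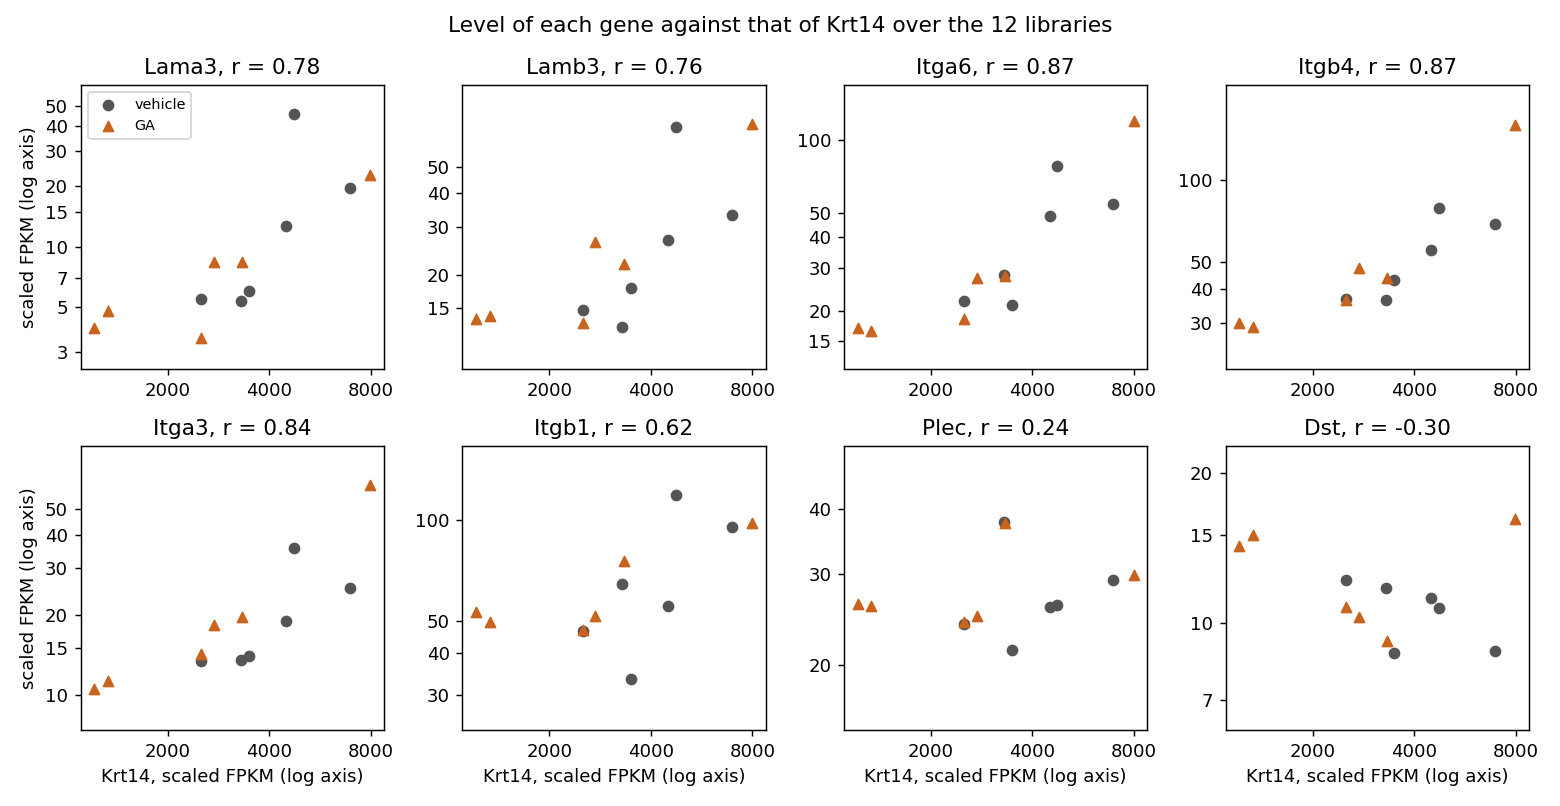
Scaled FPKM of each gene (y axis, log) against that of Krt14 (x axis, log) in the 6 vehicle (circles) and 6 GA (triangles) libraries, with Pearson's r. Itga6, Itgb4 and Itga3 rise along Krt14 in both groups, Plec shows no clear trend in these levels, and Dst is high at both ends of the Krt14 range.

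The same relation was measured against the mean log2 level of the skeletal muscle markers, to see which genes moved with the muscle share of the sample. A positive r with muscle passed an adjusted p of 0.05 for 12.1% of genes. Plec had the highest r of the 8, 0.61 (adjusted permutation p = 0.111), and it was 0.19 without vehicle 1 and vehicle 3, the libraries at the ends of the muscle range. With the muscle mean held fixed, the partial r of Plec with Krt14 was 0.75 (permutation p = 0.00683, not adjusted). The laminin chains and the integrins other than Itgb1 had an r with muscle between −0.57 (Itgb4) and −0.43 (Itga6), none with an adjusted p below 0.05, and Krt14 itself had −0.47. Without vehicle 1 and vehicle 3 these values ran from −0.80 (Itgb4, permutation p = 0.0045, not adjusted) to −0.68 (Lama3, permutation p = 0.0288, not adjusted), Krt14 was at −0.68, and Itgb1 went from −0.08 to −0.63 (permutation p = 0.0520, not adjusted).

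Whether a gene changed relative to Krt14 was tested on the ratio within each library, which does not depend on library scaling. Itgb4 was 1.24%, 1.47%, 1.11%, 1.67%, 0.992% and 1.23% of Krt14 FPKM in the vehicle libraries. GA 1 to 6 in turn had 2.48%, 1.32%, 1.74%, 1.45%, 2.18% and 1.99%. All 6 GA libraries lay above the vehicle median, and the geometric mean was 1.44-fold higher with GA (exact permutation p = 0.0195, adjusted over all genes = 0.439). Itga3 was 0.403%, 0.535%, 0.411%, 0.754%, 0.364% and 0.421% of Krt14 in the vehicle libraries. With GA it was 0.868%, 0.591%, 0.670%, 0.566%, 0.849% and 0.773%, 1.52-fold higher and above the vehicle median in 6 of 6 (exact permutation p = 0.0152, adjusted = 0.439). Neither ratio held after adjustment, and a higher ratio to Krt14 had an unadjusted p below 0.05 for 2.69% of genes.

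Both ratios depended on Krt14 as the reference. Against Krt5, the type II partner of keratin 14, the log2 difference fell to 0.13 for Itgb4 (exact permutation p = 0.509) and to 0.22 for Itga3 (exact permutation p = 0.361). Against the mean of 6 basal markers it was 0.02 and 0.10 (exact permutation p = 0.978 and 0.823). These markers include Krt14 itself and the hemidesmosome gene Col17a1. They also include Krt15 and Dlk2, which ran against Krt14 (r = −0.78 and −0.73), so their mean is a mixed reference. Among libraries that lacked Y-linked reads (2 vehicle, 5 GA) the log2 ratio to Krt14 was 0.63 higher for Itgb4 (exact permutation p = 0.0952). For Itga3 it was 0.80 higher (exact permutation p = 0.0476, the smallest p that this split of libraries can give). The libraries with such reads held only 1 of the GA group. In a limma fit with Krt14 as a covariate, Itga3 was higher by 0.54 (SE 0.20, unadjusted p = 0.0186) and Itgb4 by 0.42 (SE 0.18, unadjusted p = 0.0370) on the log2 scale, with adjusted p-values of 1.00. An unadjusted p below 0.05 was met by 3.98% of genes in that fit.

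The other 6 ratios to Krt14 did not pass. GA was 1.39-fold vehicle for Lamb3 (exact permutation p = 0.171), 1.17-fold for Itga6 (p = 0.411), 1.49-fold for Itgb1 (p = 0.147), 1.61-fold for Plec (p = 0.139), 1.84-fold for Dst (p = 0.134) and 0.965-fold for Lama3 (p = 0.926). Single libraries set some of these. The exact permutation p was 0.0173 for Lamb3 without vehicle 4, and 0.0281 for Plec and 0.0498 for Dst without GA 6.

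Ratios between partners were compared next, 5 in all beside the 8 ratios to Krt14. The Lamb3 and Lama3 messages did not keep step. One gene value pools all transcripts of a gene, so their forms could not be told apart, and the protein chains were not measured. Lamb3 was 2.94, 2.69, 2.37, 1.54, 1.70 and 2.11 times Lama3 in the vehicle libraries, per kilobase. In the GA libraries it was 3.47, 2.59, 3.13, 3.74, 2.91 and 3.15 times Lama3. The vehicle libraries with the most laminin message, vehicle 4, 5 and 6, had the lowest ratios, whereas GA 6, with as much Lamb3 as vehicle 4, had a ratio of 3.15. The geometric means were 2.15 and 3.11, a 1.44-fold difference (exact permutation p = 0.0108), with 6 of 6 GA libraries above the vehicle median. The p stayed between 0.00433 and 0.0216 when each library was left out. Adjusted over the ratios of all genes to Lama3 it was 0.578, and a higher ratio to Lama3 had an unadjusted p below 0.05 for 0.641% of genes.

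Among the α chains, Itga3 was 0.665, 0.613, 0.482, 0.456, 0.462 and 0.387 times Itga6 in the vehicle libraries. GA 1 to 6 in turn had 0.619, 0.708, 0.675, 0.769, 0.685 and 0.516 times Itga6. The groups overlapped, and the geometric mean was 1.31-fold higher with GA (exact permutation p = 0.0216, adjusted over the ratios of all genes to Itga6 = 0.834). It was past 0.05, at 0.0519, without vehicle 6 or without GA 4. A higher ratio to Itga6 had an unadjusted p below 0.05 for 0.481% of genes.

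The remaining partner ratios did not differ past the spread. Itgb4 to Itga6, the chains of 1 heterodimer, was 1.36 in vehicle and 1.68 in GA (exact permutation p = 0.108, and 0.0216 without vehicle 1). Itgb4 to Itgb1 was 0.807 and 0.781 (exact permutation p = 0.881). Dst to Plec was 0.390 and 0.445 (exact permutation p = 0.390, and 0.0368 without GA 2).

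**Figure D4:**
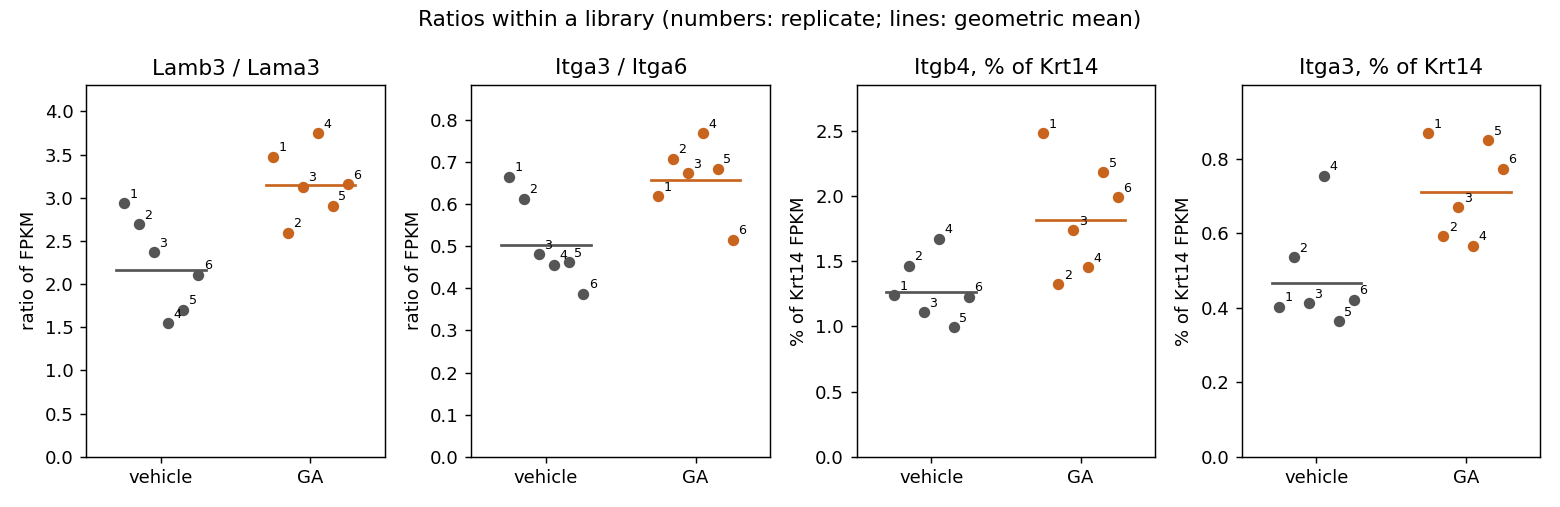
Ratio of Lamb3 to Lama3 and of Itga3 to Itga6 (ratio of FPKM), and Itgb4 and Itga3 as a percentage of Krt14 FPKM, in each library (points numbered by replicate). Lines are geometric means. In each panel all 6 GA libraries lie above the vehicle median, while the ranges of the groups overlap.

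The high libraries differed in their laminin message. In vehicle 4, Lama3 was 0.576 of Itgb4 per kilobase, against 0.0965 to 0.284 in the other 11 libraries, and it was 0.144 in GA 6. This contrast was picked out after the values were seen and was not tested. Mmp13, a collagenase of invading squamous carcinoma cells, was 26.5 and 24.6 FPKM in vehicle 4 and vehicle 5 and at most 2.67 FPKM in the other 10 libraries, GA 6 included.

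Of the other hemidesmosome parts, Col17a1 was highest in the same libraries. This transmembrane collagen, BP180, was at 317.7 FPKM in vehicle 4 and 296.0 FPKM in GA 6, and 83.6 to 161.5 FPKM in the other 10 libraries. Its log2 fold change was −0.22 with an SE of 0.36 and its r with Krt14 was 0.70 (adjusted permutation p = 0.108). Cd151, the tetraspanin of the plaque, stayed between 27.9 and 52.4 FPKM, with a log2 fold change of 0.01 and an SE of 0.15. Neither was called.

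Lists of neighbouring genes were described by counts. Of 15 other basement membrane genes 11 were lower with GA, with a median log2 difference of −0.15, and none was called. The largest were Col4a1, a chain of type IV collagen, at −0.41 (SE 0.62), and Col7a1, the anchoring fibril collagen, at −0.39 (SE 0.38), on the lower side, and Col4a5 at 0.32 (SE 0.22) and Nid1, or nidogen, at 0.14 (SE 0.43) on the higher side. Col7a1 had an r of 0.92 with Krt14. Of 11 other integrin genes 7 were lower, with a median of −0.10, led by Itga2 at −0.37 (SE 0.31) and Itgav at −0.24 (SE 0.18). Itga7, the muscle laminin receptor, was at 0.16 (SE 0.48). Of 14 genes that link integrins to actin 11 were lower, with a median of −0.07. Actn1, an α-actinin, was at −0.43 (SE 0.69) and Fermt1, the epithelial kindlin, at −0.30 (SE 0.36), while Fermt2 was at 0.32 (SE 0.39).

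Of 19 invasion-front genes 15 were lower with GA, with a median of −0.36, beside −0.01 over all tested genes. None was called and 1 had an unadjusted p below 0.05. Mmp13 was at −2.31 (SE 1.23) and Mmp10, a stromelysin, at −1.56 (SE 1.35), while Cdh13 was at 0.17 (SE 0.20) and Vim, or vimentin, at 0.14 (SE 0.32). Mmp10 was 0 FPKM in vehicle 2, GA 4 and GA 5, and highest in vehicle 4 (9.36 FPKM) and vehicle 5 (16.7 FPKM). Mmp13 was 0.0173 FPKM in GA 1 and 0.0183 FPKM in GA 5. At such low values the added 0.1 FPKM sets the log2 level, so the size of both changes is uncertain. Of 6 tested plakin and keratin linker genes 5 were lower, with a median of −0.23, among them Dsp, or desmoplakin, at −0.35 (SE 0.25). Evpl, or envoplakin, was at 0.06 (SE 0.26).

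Marker lists of the cell types in the tissue were counted in the same way, and no marker in them had an unadjusted p below 0.05. Of 6 basal keratinocyte markers 4 were lower, including Krt5 at −0.25 (SE 0.30), and Krt15, the keratin of quiet basal cells, was at 0.26 (SE 0.60). Krt15 had an r of −0.78 with Krt14 (adjusted permutation p = 0.0600). The basal median was −0.20. Of 12 suprabasal markers 10 were lower, with a median of −0.14. Of 9 tested muscle markers 8 were higher, with a median of 0.56, as were 6 of 6 Schwann cell markers (0.53) and 8 of 8 endothelial markers (0.18). All 6 fibroblast markers (−0.37) and all 8 neutrophil markers (−0.74) were lower. The neutrophil sum was 1122 to 2595 FPKM in vehicle and 235 to 1811 FPKM in GA. That sum was highest in vehicle 6, whereas the mean log2 level of the same markers was highest in vehicle 5, at 4.88. By that mean vehicle 6 lay below vehicle 2 to 5, so the sum was not taken as neutrophil content. Of 6 tongue gland markers 5 were lower, with a median of −0.998, and their sum ran from 1.71 to 22338 FPKM in vehicle and from 2.34 to 26145 FPKM in GA. None of these markers was called, and the part of these cell types in the values of the listed genes was not tested beyond fits with a muscle, neutrophil or gland term, in which no listed gene was called.

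The genes whose log2 levels were most like the mean of Lama3, Lamb3, Itga6 and Itgb4 over the 12 libraries, among 12153 other genes, included Larp7 (r = 0.98), Septin9 (0.98), Tagln2 (0.98), Src (0.98), Anxa1 (0.97), Myof (0.97) and Myh9 (0.97). Myh9 encodes a myosin and Src a tyrosine kinase of adhesion sites. The single most alike gene was Ptk2, or focal adhesion kinase, for Lamb3 (0.98), Casp6 for Itga6 (0.99), Pfn1, or profilin, for both Itgb4 (0.98) and Itga3 (0.98), and Nfkb2 for Itgb1 (0.98). For the plakins the likeness was looser, with Casd1 for Plec (0.92) and Amer1 for Dst (0.88). These values describe 12 libraries that share their tissue makeup and carry no test.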

How the data were processed

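Tongue RNA was sequenced in bulk as 6 vehicle and 6 GA SMARTer mRNA-Seq libraries. HISAT2 (mm10) and featureCounts (unique reads) were used by the authors, who deposited FPKM values, in which reads are divided by gene length and library total, so tissue makeup stays in them. Rows without a symbol (22965 of 55463) were left out. Read totals were recovered from GENCODE M21 exon lengths, shortened with library size by a formula inferred from the values and not stated by the authors, with 97.8% to 98.3% of low values whole within 0.02 reads. A trimmed mean of log ratios set the library scale.

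Genes averaging 0.1 FPKM or more were compared with limma 3.58.1 (R 4.3.3, trended variance) on log2(FPKM + 0.1), which understates changes of low genes, with Benjamini-Hochberg adjustment over all of them. The study's count model was not used, since FPKM are not counts. Single values and ratios over all 12 libraries had exact two-sided permutation tests over 924 assignments, whose smallest p is 0.00216. Correlations had 100000 permutations (SciPy 1.17.1). Ratio tests with libraries left out had fewer assignments, and those with a replicate block had 64 sign flips, so their smallest p can be larger. Adjusted p-values of ratios cover all genes against the same denominator. Tests were tried on simulated data.

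The genes and lists were chosen with earlier results of these data known. Named genes were the 8 listed genes, Krt14, from each list the 2 largest changes in each direction among genes above 1 FPKM on average, and the most alike genes. Other genes were named after their values were seen. Alternatives covered pseudocount, filter, scaling, covariates, read-based limma-voom, replicate block and left-out libraries. Replicate numbers did not pair the libraries. Some results are not reported here.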

Additional observations from a re-analysis of the deposited data

Results flagged for a closer look

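In 10 of 44 groups of 6 values, 1 library stood apart from the rest by Dixon's ratio, the gap to the nearest library divided by the range, which passed the critical value for 6 values. Levels were compared as FPKM, where high values lie further apart than on the log2 scale, and ratios as log2 values. Chance flags about 1 in 20 groups when values follow a normal distribution, which was not checked here. The groups share libraries, so these are not 10 separate events. GA 6 stood above the other GA libraries in Itga6 (0.891), Itgb4 (0.858), Itga3 (0.822), Lamb3 (0.776), Lama3 (0.745) and Krt14 (0.689). Vehicle 4 stood above the other vehicle libraries in Lama3 (0.647) and Lamb3 (0.643), and in their ratios to Krt14 (0.693 for Lama3 and 0.68 for Lamb3). In GA 6 the laminin chains were thus high together with Krt14, and in vehicle 4 they were high relative to it. The part of tissue sampling in these values was not tested.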

How the results depend on the processing

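Over all tested genes, 0 were called in every planned fit on all 12 libraries that kept the call limits. Leaving out 1 library gave 0 to 1 genes (1 without vehicle 4), the libraries without Y-linked reads gave 2, leaving out both vehicle 4 and GA 6, chosen after seeing the data, gave 1, and an unadjusted p with no fold limit gave 367. At the call limits the genes were Gm25290 in all 3 cases and Gm23390 in the libraries without Y-linked reads, both named after their values were seen. The cause of changes was not tested.

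Small group differences changed sign (log2). With a muscle term Lamb3 was 0.0146, Itgb4 0.0275, Itga3 0.106 and Plec −0.0134. With a neutrophil term Lamb3 was 0.0867, Itgb4 0.0207, Itga3 0.16 and Itgb1 0.20, and Lama3 shrank to −0.30 and Itga6 to −0.19. With a Krt14 term Lamb3 was 0.43, Itga6 0.25, Itgb4 0.42, Itga3 0.54 and Itgb1 0.22. Itgb1 was 0.0190 without the libraries high in Lipf. Leaving out each library gave −0.51 to 0.14 for Lamb3, −0.47 to 0.0173 for Itgb4, −0.39 to 0.15 for Itga3, −0.25 to 0.11 for Itgb1 and −0.0439 to 0.14 for Plec.

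Among ratios, Lama3 to Krt14 was 0.0102 with a pseudocount of 1, 0.29 without vehicle 4 and GA 6, and −0.21 to 0.30 over left-out libraries. Against the basal list Lamb3 was −0.0295 and Itga6 −0.29, and Itga6 was −0.17 against Krt5. Itgb4 to Itgb1 ran from −0.26 to 0.0867 over left-out libraries. The r of Dst was 0.0343 with Krt5 and 0.26 without GA 1 and GA 5.

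Replicate numbers did not pair the libraries (r of deviations −0.37 to 0.08). With a replicate block 0 genes were called, and exact p-values became 0.125 for Itgb4 and 0.0938 for Itga3 to Krt14, and 0.0625 for Lamb3 to Lama3 and for Itga3 to Itga6.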
